A study of Homo sapiens with 6 samples.

Results

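Metallothioneins are small cysteine-rich proteins that bind zinc and copper, and also toxic metals such as cadmium. They buffer free zinc in the cytosol and scavenge oxidants, and epithelial cells of the gut make several of them from a cluster of near-copies on chromosome 16. Their genes are switched on by MTF1, a zinc-finger factor that binds zinc and then attaches to short metal response elements in their promoters. The genes described here are the metallothioneins *MT1A*, *MT1E*, *MT1F*, *MT1G*, *MT1H*, *MT1M*, *MT1X* and *MT2A*, together with *MTF1*, picked by gene name from the count table. These 9 genes are 9 of the 58735 in the table, and they were picked with the difference between acidified bile salts (ABS) and control already known. Their ABS against control values are therefore given as a description, without p-values read as evidence.

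The cells were OE33, an established line from a human esophageal adenocarcinoma, grown in medium with serum. ABS cells (3 libraries) were held for 20 min in medium without supplements at pH 4.0 with 200 µM bile salts, then returned to complete medium for 6 h. Control cells (3 libraries) were untreated. Polyadenylated RNA was sequenced in bulk, and the libraries were labelled as independent biological replicates. Acid, bile salts, the unsupplemented medium and its change came together in the ABS group, so their parts cannot be told apart, and the bile salts in the mixture are not named.

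Libraries held 23414287 to 25235686 counts in the ABS group and 22145676 to 23683950 in the control group. Counts were scaled to TMM library sizes (trimmed mean of M values) and are given as CPM, the counts of a gene per 1000000 of the scaled total, and a count of 3 was worth 0.118 to 0.131 CPM in ABS libraries and 0.124 to 0.137 CPM in control libraries. The summed level of 8 epithelial markers (*EPCAM*, *CDH1*, *KRT8* and others) was 22317 to 23537 CPM in ABS libraries and 21711 to 24205 CPM in control libraries. The immune markers *PTPRC*, *CD3E* and *MS4A1* were at 0 counts in every library, and the immune list summed to 6.38 to 7.57 CPM in ABS and 5.54 to 7.51 CPM in control libraries. Fibroblast markers summed to 2.59 to 4.11 CPM in ABS and 2.82 to 3.14 CPM in control libraries, with 3 of 7 at 0 everywhere, and endothelial markers to at most 0.275 CPM in ABS and 0.0455 CPM in control libraries. Replicate 3 differed from replicates 1 and 2 in ABS and control cells alike. A chi-square statistic per degree of freedom on raw counts was 6.74 between ABS replicate 3 and control replicate 3, 4.77 between replicates 1 and 2 of either group, and 13.6 to 18.9 for every other pair. In bulk RNA, a change in the share of cells that express a gene and a change in RNA per cell cannot be told apart.

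The paralogs encode nearly the same protein, so their reads are separated by few bases. Coding regions of 3 of them are shown because the levels below rest on telling them apart. They come from the GENCODE release 29 transcripts (GRCh38, chromosome 16, plus strand), and capitals mark bases that differ from *MT1E*.
MT1E: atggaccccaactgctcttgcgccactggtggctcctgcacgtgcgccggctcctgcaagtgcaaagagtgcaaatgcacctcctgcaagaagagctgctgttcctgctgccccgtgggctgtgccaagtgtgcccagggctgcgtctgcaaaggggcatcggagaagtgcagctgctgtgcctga
MT1M: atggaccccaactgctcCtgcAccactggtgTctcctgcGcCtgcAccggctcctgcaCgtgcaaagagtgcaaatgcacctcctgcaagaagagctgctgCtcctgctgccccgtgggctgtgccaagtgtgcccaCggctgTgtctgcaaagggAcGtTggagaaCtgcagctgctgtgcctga
MT2A: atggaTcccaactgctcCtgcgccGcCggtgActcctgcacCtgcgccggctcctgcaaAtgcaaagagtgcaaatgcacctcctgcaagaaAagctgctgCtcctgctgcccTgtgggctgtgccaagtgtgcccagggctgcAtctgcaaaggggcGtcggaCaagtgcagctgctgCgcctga
Over 186 coding bases, *MT1M* and *MT2A* each differed from *MT1E* at 14 positions. Across the 28 pairs of the 8 paralogs, coding identity lay between 88.7% (*MT1F* and *MT1X*) and 95.2% (*MT2A* and *MT1G*), with a median of 91.9%. Of windows of 50 bases along each reference mRNA, untranslated parts included, 20.2% in *MT1G*, 20.4% in *MT1H* and 45.1% in *MT1X* were also found in a transcript of another gene, against 3.59% to 7.05% in the other 5 paralogs. At 100 bases such shared windows were found only in *MT1H* (3.36%, shared with *MT1HL1*) and *MT1X* (19.1%, shared with the overlapping same-strand transcript *AC026461.1*). *MT1HL1* and *AC026461.1* were listed at 0 counts in every library. Read length, strand setting and how multiply matching reads were counted were not given in the sources used here, so the split of reads among paralogs, and the level of *MT1X*, is uncertain to that extent.

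Except for *MT1A*, each metallothionein was higher in every ABS library than in any control library. *MT2A* (ENSG00000125148, chromosome 16, 56608199 to 56609497, GRCh38), the most abundant form, measured 223, 195 and 201 CPM in ABS replicates 1, 2 and 3, against 42.1, 54.5 and 94.5 CPM in control replicates 1, 2 and 3. The ABS libraries lay close together, all above the control libraries, of which replicate 3 was the highest. The fitted fold of *MT2A* was 3.23, with a range of 2.40 to 4.35 at 2 standard errors (SE) either side. *MT1E* (ENSG00000169715, 56625475 to 56627112), an inducible form, measured 60.9, 50.01 and 55.1 CPM in ABS libraries, against 3.14, 5.23 and 8.52 CPM in control libraries. The lowest ABS value of *MT1E* thus stood well above the highest control value, at a fitted fold of 9.79 (6.997 to 13.7 at 2 SE).

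*MT1X* and *MT1F*, 2 further inducible forms, were intermediate in level and fold. *MT1X* (ENSG00000187193, 56682424 to 56684196) measured 14.4, 11.4 and 12.8 CPM in ABS libraries, against 1.06, 1.64 and 3.06 CPM in control libraries, a fold of 6.66 (4.49 to 9.89 at 2 SE). *MT1F* (ENSG00000198417, 56657694 to 56660698) measured 6.62, 7.48 and 10.0 CPM in ABS libraries, against 1.06, 1.23 and 1.45 CPM in control libraries, a fold of 6.42 (4.58 to 9.001 at 2 SE). In *MT1F* the highest library of both groups was replicate 3, unlike in *MT2A*, *MT1E* and *MT1X*, where ABS replicate 1 was highest.

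*MT1G*, *MT1M* and *MT1H* had almost no counts in control cells. *MT1G* (ENSG00000125144, 56666731 to 56668065, the only paralog here on the minus strand) had 178, 126 and 149 counts in ABS libraries, against 2, 1 and 0 in control libraries. After scaling, the ratio of the summed counts was 144 (exact 95% binomial interval 48.9 to 700.1). *MT1M* (ENSG00000205364, 56632233 to 56633986) had 16, 18 and 15 counts in ABS libraries, against 0, 0 and 1 in control libraries, a ratio of 46.7 (7.99 to 1881). *MT1H* (ENSG00000205358, 56669814 to 56671129) had 3, 2 and 9 counts in ABS libraries, against 0 in each control library. Summed over the group it was at least 4.45-fold higher in ABS, taking 3 counts as the limit that the 0 allows over the 3 control libraries and leaving out the counting error of the 14 ABS counts. The exact 95% interval used for *MT1G* and *MT1M* began at 3.16 for *MT1H*. *MT1H* was too low for the filter of the gene test. These intervals and limits cover counting error only.

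*MT1A* (ENSG00000205362, 56638666 to 56640087) had 21, 16 and 32 counts in ABS libraries, against 1, 12 and 20 in control libraries. The groups overlapped, since control replicate 3 (0.827 CPM) lay above ABS replicate 2 (0.699 CPM). Its fold was 1.97, with a range at 2 SE of 0.791 to 4.91, which includes 1.

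*MTF1* (ENSG00000188786, chromosome 1, 37809567 to 37859620), the zinc-sensing activator of the family, measured 26.7, 26.3 and 25.2 CPM in ABS libraries, against 17.7, 17.5 and 21.2 CPM in control libraries. All ABS libraries lay above all control libraries, at a fold of 1.39 (1.19 to 1.61 at 2 SE).

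**Figure D1:**
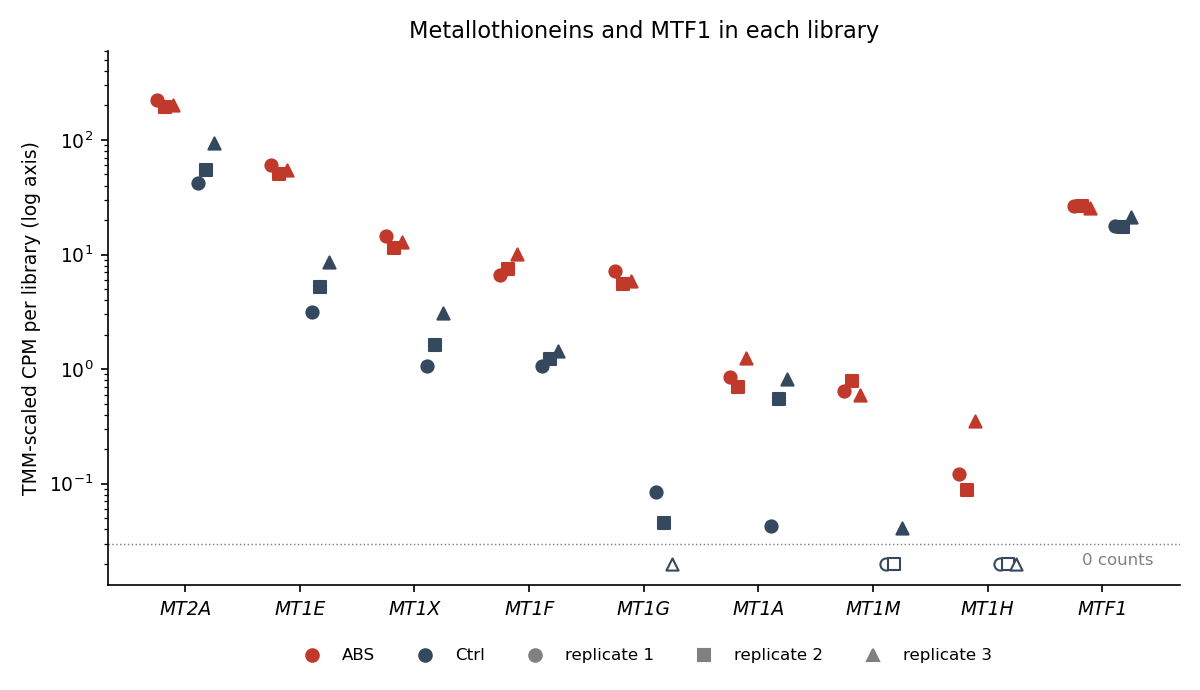
TMM-scaled CPM of each gene in each library on a log axis, ABS (red) left of control (dark), with replicate shown by symbol and libraries with 0 counts as open symbols below the dotted line. ABS and control values are separate for 8 of the 9 genes, and *MT1A* is the gene whose groups overlap.

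The edgeR quasi-likelihood test over 13768 genes was fitted for the background. Of all genes tested, 0.37% passed as higher, 0.0654% as lower and 0.436% in either direction at an adjusted p below 0.05. Among the 9 genes described here, 8 were tested and 6 passed, all as higher (*MT2A*, *MT1E*, *MT1X*, *MT1F*, *MT1G* and *MT1M*), and nothing is read from this count because the same contrast was used to pick them. *MT1A* and *MTF1* did not pass. Groups did not overlap, with ABS higher, in 8 of the 9 genes, among them the untested *MT1H*, against 7.57% of all genes tested. They did not overlap, with ABS lower, in 0, against 6.95%. Nothing is read from these counts either, for the same reason. The median log2 fold change of the 7 tested metallothioneins was 2.74, that of *MT1X*, while the median over all tested genes was −0.00369. Setting *MT1G* and *MT1M* to the lower end of their intervals could not move it, since both stay above *MT1X*. These 2 genes passed the filter only through their ABS counts. Nothing is read from this median, because the same contrast was used to pick the genes. Some of the calls among the 9 genes changed when 1 library was left out. The count of 6 was 4 without control replicate 2, where *MT2A* and *MT1M* did not pass, and 5 without ABS replicate 1, ABS replicate 2 or control replicate 1, where *MT1M* did not pass. It was 7 without control replicate 3, and also 7 when the fit held a replicate 3 term, where *MTF1* passed as well. Over all genes, 12 passed without control replicate 2 and 13, 18 and 17 without ABS replicate 1, ABS replicate 2 and control replicate 1. The main fit had 60, the fit without control replicate 3 had 438 and that with a replicate 3 term 465.

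Ordered by fold, the paralogs ran *MT1G*, *MT1M*, *MT1E*, *MT1X*, *MT1F*, *MT2A* and *MT1A*. The intervals of *MT1G* and *MT1M* cover counting error only, while those of the other paralogs come from the SE of the fit. *MT1M* overlapped *MT1G*, *MT1E*, *MT1X* and *MT1F* in these intervals. *MT1E* also overlapped *MT1X* and *MT1F*, and *MT1X* overlapped *MT1F*. *MT1A* overlapped *MT2A*, *MT1F* and *MT1X*. The interval of *MT2A* ended at 4.35, below the 4.58 at which that of *MT1F* began. No difference between paralogs was tested. Folds did not run in order along the cluster. *MT1A*, 30.5 kb from the start of *MT2A*, lay between *MT1M* at 24.0 kb and *MT1F* at 49.5 kb. The neighbours *MT1G* and *MT1H* run in opposite directions.

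**Figure D2:**
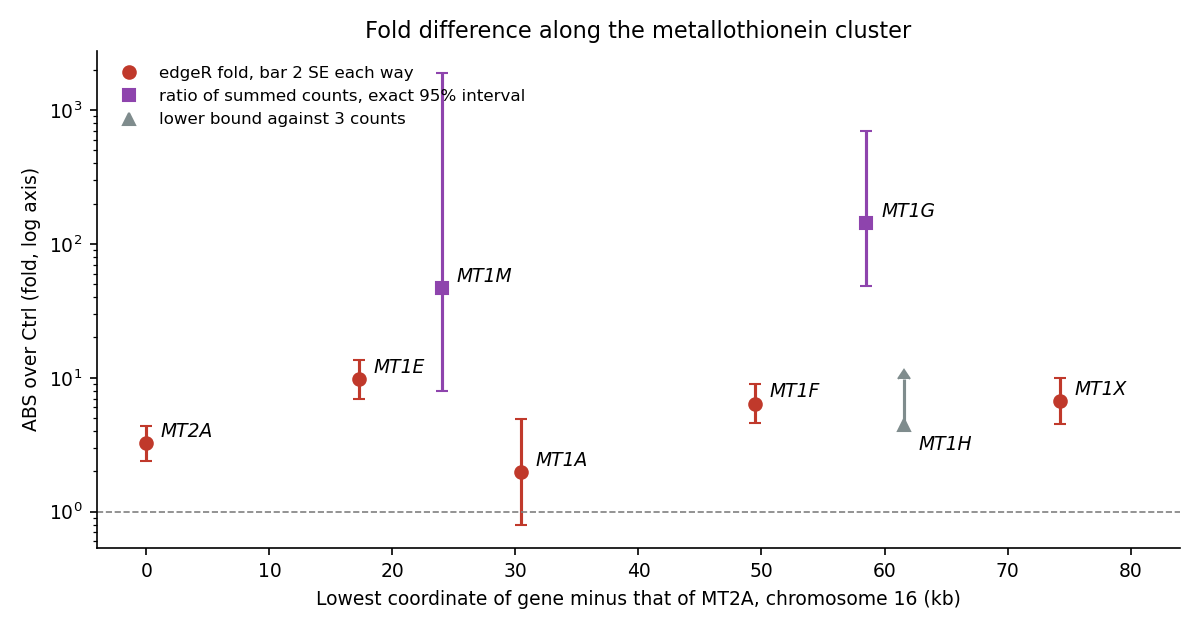
ABS over control as a fold on a log axis against the lowest coordinate of each metallothionein gene minus that of *MT2A* in kb, with the bars defined in the key and a lower bound for *MT1H*. The points run from 1.97 for *MT1A* to 144 for *MT1G*, and the bar of *MT1A* overlaps those of *MT2A*, *MT1F* and *MT1X*.

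The summed metallothionein level was 313, 271 and 286 CPM in ABS libraries, against 47.5, 63.2 and 108 CPM in control libraries. It averaged 290.2 ± 21.6 CPM in ABS and 73.0 ± 31.6 CPM in control cells (SD, n = 3 each), a ratio of means of 3.97. As a share of all counts this was 0.0289% ± 0.00222 in ABS and 0.00736% ± 0.00332 in control cells (SD, n = 3 each). Because *MT2A* dominated the sum and had the smallest fold among the 6 that passed, the total without it differed more, at 84.2 ± 7.53 CPM in ABS and 9.33 ± 4.29 CPM in control cells, a ratio of 9.03.

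The composition of the family also differed. *MT2A* made up 71.0%, 71.9% and 70.0% of the summed metallothionein counts in ABS replicates 1, 2 and 3, against 88.6%, 86.2% and 87.2% in control replicates 1, 2 and 3. *MT1E* made up 19.4%, 18.5% and 19.2% in ABS libraries, against 6.62%, 8.28% and 7.86% in control libraries. For both genes the groups did not overlap, and exact 95% binomial intervals reached at most 1.13 percentage points either side in ABS and 1.90 in control libraries, which covers counting error only. *MT1G* held 2.12% ± 0.146 in ABS and 0.0836% ± 0.0900 in control cells, and *MT1X* 4.42% ± 0.198 in ABS and 2.55% ± 0.296 in control cells (SD, n = 3 each). *MT1F* held 2.79% ± 0.692 in ABS and 1.84% ± 0.459 in control cells, and its groups overlapped, with ABS replicate 1 (2.11%) below control replicate 1 (2.24%). *MT1A* held 0.322% ± 0.101 in ABS and 0.572% ± 0.421 in control cells, also overlapping. *MT1H* had 0 of 5127 metallothionein counts in the control libraries, which allows a share of up to 0.0585%. The share of *MT2A* was thus lower in ABS cells while its own level was higher.

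**Figure D3:**
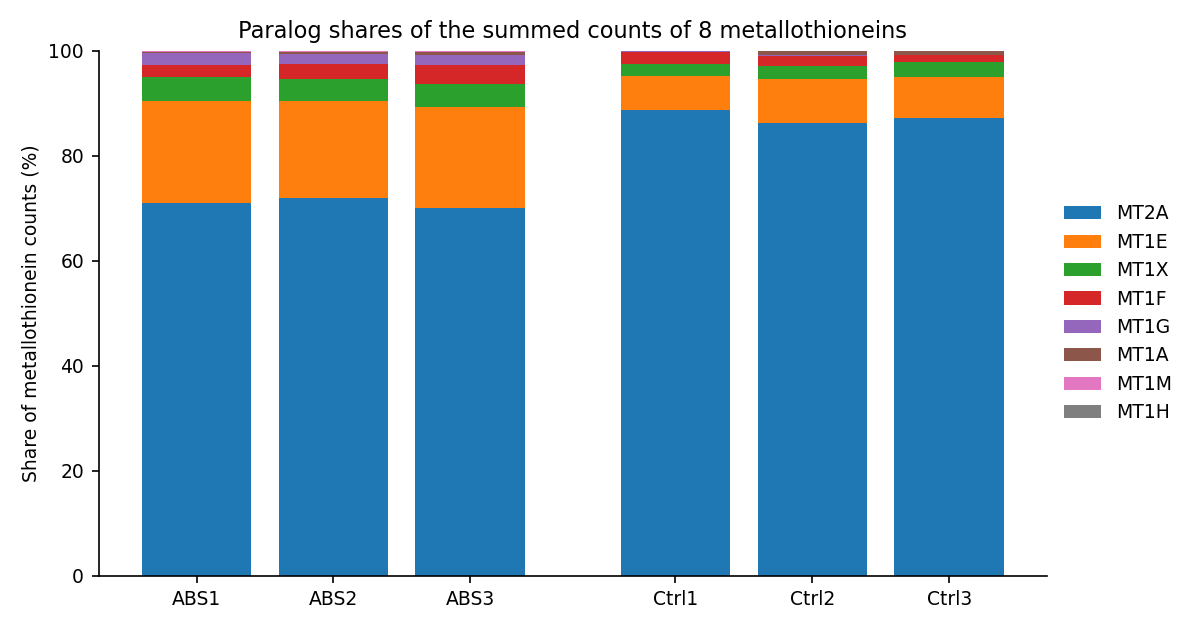
Share of the summed counts of 8 metallothioneins taken by each paralog (percent, stacked bars from 0 to 100) in the 3 ABS and the 3 control libraries. *MT2A* takes 70.0% to 71.9% in ABS and 86.2% to 88.6% in control libraries, and *MT1E* takes most of the rest.

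Levels of different genes were compared after division by the deposited gene length, as TPM (transcripts per 1000000). *MT2A* stood at 591 ± 40.7 TPM in ABS and 183 ± 86.5 TPM in control cells, rank 214 in ABS and rank 875 in control cells among 19951 protein-coding genes. *MT1E* followed at 196 ± 19.8 TPM in ABS (rank 816) and 20.0 ± 10.4 TPM in control cells (rank 5969). In ABS cells *MT1G* (30.7 ± 4.21 TPM) and *MT1X* (27.0 ± 3.23 TPM) came next and overlapped, followed by *MT1F* (15.9 ± 3.90 TPM), *MT1A* (8.83 ± 2.96 TPM), *MT1M* (2.66 ± 0.354 TPM) and *MT1H* (0.977 ± 0.780 TPM). In control cells *MT1A* (4.46 ± 3.86 TPM), *MT1X* (4.05 ± 2.34 TPM) and *MT1F* (2.44 ± 0.472 TPM) did not differ beyond their spread, and *MT1G* (0.209 ± 0.206 TPM) and *MT1M* (0.0565 ± 0.0979 TPM) had lower means, although in control replicate 1 *MT1G* (0.411 TPM) lay above *MT1A* (0.389 TPM) (SD, n = 3 each throughout). *MTF1* stood at 12.1 ± 0.112 TPM in ABS and 8.66 ± 1.35 TPM in control cells.

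The order of *MT1G* and *MT1X* depended on the length used. The deposited length of *MT1X* is 1773 bases and its reference mRNA has 450, while *MT1G* has 750 and 406. Per deposited length *MT1G* held 3.51% and *MT1X* 3.09% of the family in ABS cells, and per mRNA length *MT1G* held 3.79% and *MT1X* 7.14%. The control order of *MT1X*, *MT1F* and *MT1A* depended on it too. Per deposited length they held 1.83%, 1.24% and 1.83% in control cells, and per mRNA length 4.30%, 2.02% and 1.09%. Per mRNA length every control library of *MT1X* lay above those of *MT1A*.

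Control libraries varied more than ABS libraries in most of these genes. The coefficient of variation was 7.14% in ABS and 42.9% in control cells for *MT2A*, 9.86% in ABS and 48.1% in control cells for *MT1E*, and 11.8% in ABS and 53.6% in control cells for *MT1X*, whereas for *MT1F* it was 22.0% in ABS and 15.5% in control cells. Control replicate 3 was 1.96 times the mean of control replicates 1 and 2 for *MT2A*, 2.03 times for *MT1E*, 2.27 times for *MT1X* and 1.26 times for *MT1F*. ABS replicate 3 was 0.961, 0.993, 0.987 and 1.42 times the mean of ABS replicates 1 and 2 for the same genes. The fold of the summed level was 5.28 within replicates 1 and 2 and 2.64 within replicate 3, where it rests on 1 library per group. *MT1E* differed 13.2-fold within replicates 1 and 2 and 6.46-fold within replicate 3, and *MT1F* 6.15-fold and 6.91-fold. *MT1A* differed 2.63-fold within replicates 1 and 2 and 1.52-fold within replicate 3, and *MTF1* 1.51-fold and 1.19-fold. The part of the separation of the replicate 3 libraries in these values was not tested.

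**Figure D4:**
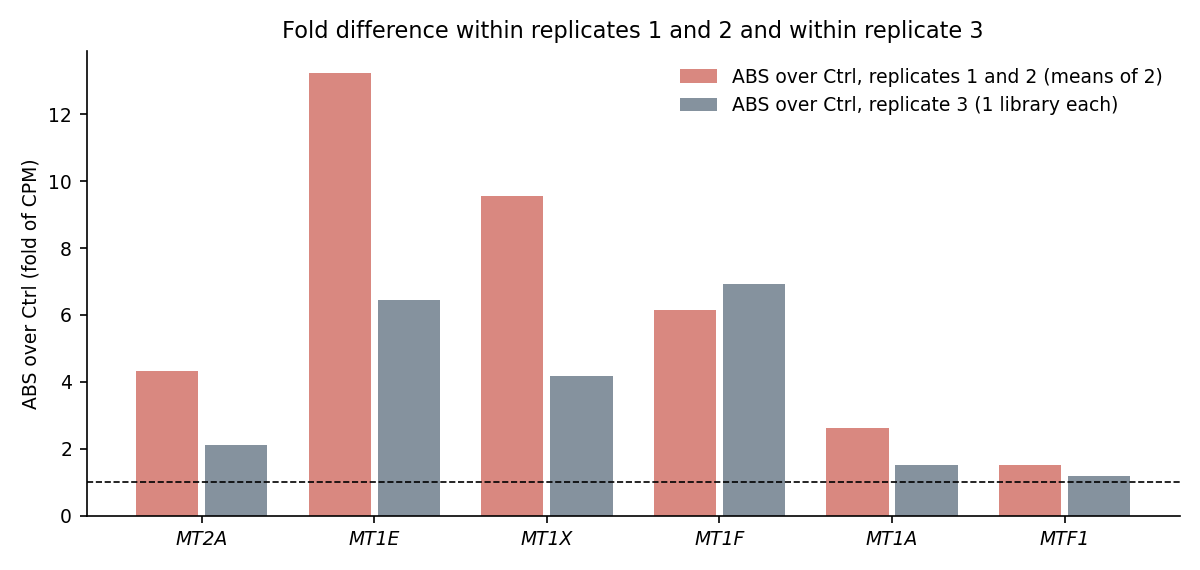
ABS over control as a fold of CPM, within replicates 1 and 2 (red, means of 2 libraries per group) and within replicate 3 (grey, 1 library per group), with a dashed line at 1. The fold is smaller within replicate 3 for *MT2A*, *MT1E*, *MT1X*, *MT1A* and *MTF1*, and not for *MT1F*.

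Promoters are shown for *MT2A*, *MT1X* and *MT1H*, the 3 of the 8 paralogs with an entry in the RefSeq promoter table (GRCh38.p14), since metal response elements there are the sites that MTF1 is known to bind. Each window runs from 250 bases before to 50 bases after the RefSeq start. The core searched was TGCACNC or TGCGCNC on either strand, and capitals mark its matches, none of which overlap.
MT2A (chr16:56608334-56608633, plus strand): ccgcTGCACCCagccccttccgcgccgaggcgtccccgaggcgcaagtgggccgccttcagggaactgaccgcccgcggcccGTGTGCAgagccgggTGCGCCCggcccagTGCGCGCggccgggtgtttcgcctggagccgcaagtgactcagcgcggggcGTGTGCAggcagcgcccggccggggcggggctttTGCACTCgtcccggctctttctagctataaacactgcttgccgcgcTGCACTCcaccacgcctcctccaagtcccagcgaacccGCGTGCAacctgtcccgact
MT1X (chr16:56682220-56682519, plus strand): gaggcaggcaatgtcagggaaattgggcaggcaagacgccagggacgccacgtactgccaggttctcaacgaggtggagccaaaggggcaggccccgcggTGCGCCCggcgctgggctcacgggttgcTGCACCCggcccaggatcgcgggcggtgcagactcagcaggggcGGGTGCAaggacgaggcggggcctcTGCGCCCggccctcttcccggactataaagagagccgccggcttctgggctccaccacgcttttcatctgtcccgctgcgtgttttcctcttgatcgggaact
MT1H (chr16:56669564-56669863, plus strand): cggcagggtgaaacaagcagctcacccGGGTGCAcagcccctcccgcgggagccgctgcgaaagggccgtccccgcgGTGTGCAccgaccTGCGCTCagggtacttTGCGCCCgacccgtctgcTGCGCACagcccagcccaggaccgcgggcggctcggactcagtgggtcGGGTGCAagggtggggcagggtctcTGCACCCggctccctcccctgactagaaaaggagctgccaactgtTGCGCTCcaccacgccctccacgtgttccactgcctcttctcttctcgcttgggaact
*MT2A* and *MT1H* each held 8 matches, 5 of them on the gene strand, and *MT1X* held 4, 3 of them on the gene strand. All 3 have a match that begins 53 or 54 bases before the start. Of 35116 promoter windows of the same length, 29.6% held at least 1 match, 0.601% at least 4 and 0.0199%, or 7 windows, at least 8. *MT1B* and *MT4*, which had 0 counts in every library, held 3 matches each. The *MTF1* window held no match, and 4 of the 9 genes had an entry in the table. The number of matches did not follow the ABS level, since *MT2A* and *MT1H*, with 8 each, were the highest and the lowest of the 8 paralogs. Such matches describe the letters and do not show binding.

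A further 13 metallothionein genes and pseudogenes are annotated, and 8 of them had 0 counts in every library, among them *MT3*, *MT4* and *MT1B*. *MT2P1*, a processed pseudogene of *MT2A* on chromosome 4, had 76, 38 and 23 counts in ABS libraries, against 6, 5 and 14 in control libraries. The groups did not overlap, and the fitted log2 difference of 2.38 ± 0.56 (SE) did not pass (edgeR adjusted p = 0.104). It passed in 7 of 13 alternatives, among them DESeq2 (adjusted p = 0.00501) and without control replicate 3 (0.0285) or ABS replicate 3 (0.0251). Of its 50-base windows 15.7% occur in another transcript, *MT2A* among them, and 0% of its 100-base windows do. *MT1L*, a transcribed pseudogene inside the cluster, had 23, 30 and 28 counts in ABS libraries, against 13, 24 and 16 in control libraries, with overlapping groups (log2 fold change 0.53 ± 0.43, edgeR adjusted p = 0.764). *MT1DP* (9 counts over the ABS and 6 over the control libraries), *MT1JP* (3 over the ABS and 1 over the control libraries) and *MT1XP1* (1 over the ABS and 0 over the control libraries) were below the filter.

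Around the cluster, of 9 tested protein-coding genes within 500 kb, 0 passed the edgeR test, 0 had an unadjusted p under 0.05 and 0 passed with DESeq2, at a median log2 fold change of −0.06. Over all genes the shares were 0.436%, 9.75% and 2.08% in that order, so a count of 0 among so few genes says little. The nearest on the *MT2A* side, *BBS2*, which encodes a protein of primary cilia, measured 25.6, 26.8 and 28.6 CPM in ABS libraries, against 24.4, 22.8 and 27.0 CPM in control libraries (log2 fold change 0.13 ± 0.10). The nearest on the *MT1X* side, *NUP93*, which encodes a nuclear pore protein, measured 229, 232 and 203 CPM in ABS libraries, against 243, 235 and 217 CPM in control libraries (−0.07 ± 0.08). *HERPUD1*, an endoplasmic reticulum stress gene, had the smallest p of the list (−0.23 ± 0.12, adjusted p = 0.594), and passed when replicates 1 and 2 alone were fitted (adjusted p = 0.0186). In that fit 1813 genes passed, against 60 in the main fit.

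A list of 20 genes known to respond to zinc, cadmium or MTF1 had 19 tested members, of which 3 rose and 0 fell, against 0.37% of all genes for rises. This list and those below were chosen with earlier results of these data known, so their counts are given as a description. The zinc exporter gene *SLC30A1* measured 242, 263 and 154 CPM in ABS libraries, against 20.4, 20.3 and 53.0 CPM in control libraries (log2 fold change 2.81 ± 0.32, edgeR adjusted p = 0.00186), and it passed in all 13 alternatives. *GCLM*, which encodes the modifier subunit of glutamate-cysteine ligase, measured 147 ± 14.5 CPM in ABS and 94.5 ± 4.25 CPM in control cells (log2 fold change 0.64 ± 0.08, adjusted p = 0.00498). *TXNRD1*, a thioredoxin reductase gene, measured 1106 ± 168 CPM in ABS and 767 ± 24.8 CPM in control cells (SD, n = 3 each; 0.53 ± 0.10, adjusted p = 0.0431). *GCLM* did not pass without ABS replicate 1 (0.0691), control replicate 1 (0.0586) or control replicate 2 (0.0701), and *TXNRD1* did not pass without ABS replicate 1, ABS replicate 2, control replicate 1 or control replicate 2 (0.233 to 0.298). The list's median log2 fold change was 0.28, against −0.00369 over all genes, and 8 members had an unadjusted edgeR p under 0.05 (9.75% of all genes). None of the 4 heat shock genes of the list passed, with log2 fold changes of 0.41 ± 0.36 for *HSPA6*, 0.12 ± 0.14 for *HSPA1B*, 0.10 ± 0.21 for *HSPA1A* and −0.06 ± 0.07 for *DNAJB1*. *SLC39A10*, a zinc importer gene that MTF1 is known to repress in mouse cells, measured 126 ± 29.3 CPM in ABS and 134 ± 37.9 CPM in control cells (SD, n = 3 each; log2 fold change −0.09 ± 0.20).

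Of 10 factors known at metallothionein promoters besides MTF1, 0 passed the edgeR test, 5 had an unadjusted p under 0.05 (9.75% of all genes) and 3 passed with DESeq2 (2.08% of all genes with a DESeq2 adjusted p). *NFE2L2*, which encodes the antioxidant factor NRF2, measured 158, 169 and 164 CPM in ABS libraries, against 114, 100.4 and 134 CPM in control libraries (log2 fold change 0.49 ± 0.10, adjusted p = 0.0534). *CTCF*, a chromatin insulator protein, measured 94.2, 104 and 93.9 CPM in ABS libraries, against 66.8, 65.8 and 80.7 CPM in control libraries (0.45 ± 0.09, adjusted p = 0.0577). In both, all ABS libraries lay above all control libraries. Each passed in 7 of 13 alternatives, among them DESeq2 (adjusted p = 0.000605 for *NFE2L2* and 0.00208 for *CTCF*), without ABS replicate 3 (0.0328 and 0.0299) and without control replicate 3 (0.000688 and 0.00181).

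Glucocorticoids are another known inducer of *MT2A*. Among 9 tested glucocorticoid-induced genes, 1 rose and 0 fell, against 0.37% higher and 0.0654% lower over all genes, at a median log2 fold change of −0.07. An unadjusted edgeR p under 0.05 was found for 3 of them (9.75% of all genes), with *CEBPD* higher and *KLF9* and *BCL6* lower. *CEBPD*, a transcription factor that inflammatory signals also induce, measured 28.2, 27.9 and 28.6 CPM in ABS libraries, against 14.8, 15.7 and 18.7 CPM in control libraries (0.79 ± 0.11, edgeR adjusted p = 0.00925). It did not pass without ABS replicate 1 (0.0702), ABS replicate 2 (0.0523), control replicate 1 (0.0759) or control replicate 2 (0.112). The other 8 did not pass and had log2 fold changes of both signs, at 0.38 ± 0.21 for *SGK1*, 0.09 ± 0.13 for *DUSP1*, 0.01 ± 0.11 for *GLUL*, −0.07 ± 0.08 for *FKBP5*, −0.22 ± 0.14 for *PER1*, −0.29 ± 0.18 for *TSC22D3*, −0.69 ± 0.24 for *KLF9* and −0.91 ± 0.24 for *BCL6*.

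Copper is another metal that these proteins carry. Of 10 tested copper-handling genes, 0 passed the edgeR test, 0 had an unadjusted p under 0.05 and 0 passed with DESeq2, at a median log2 fold change of −0.05. The shares over all genes were 0.436%, 9.75% and 2.08% in that order, so here too a count of 0 says little. The smallest p were those of *COMMD1*, a regulator of copper export (−0.30 ± 0.15, adjusted p = 0.562), and *ATOX1*, a copper chaperone (−0.17 ± 0.11, adjusted p = 0.697). The copper importer gene *SLC31A1* measured 68.3 ± 7.99 CPM in ABS and 68.8 ± 6.66 CPM in control cells (SD, n = 3 each).

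**Figure D5:**
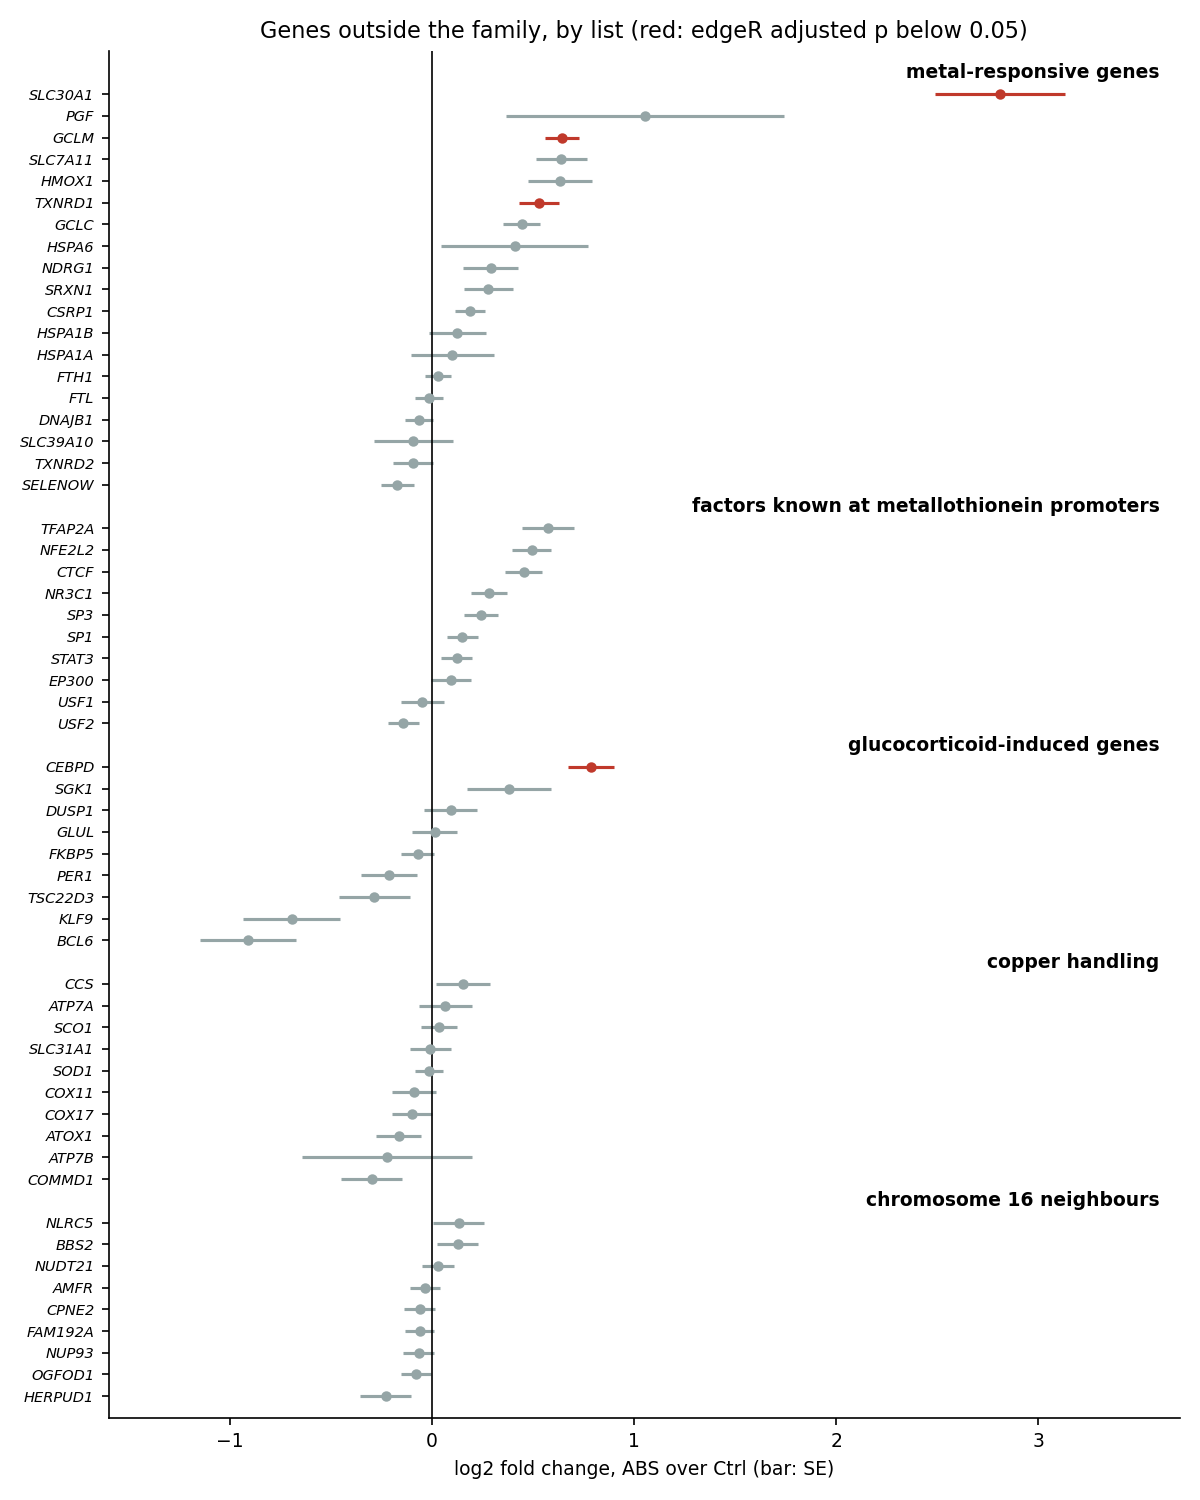
Log2 fold change of ABS over control with its SE for the tested genes of 5 lists outside the family, red where the edgeR adjusted p was below 0.05. *SLC30A1* stands apart at 2.81, the other red points (*CEBPD*, *GCLM* and *TXNRD1*) lie between 0.53 and 0.79, and the copper and chromosome 16 neighbour lists hold no red point.

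The genes most like the metallothioneins across the 6 libraries were found by the root mean square difference in centred log2 CPM from the mean profile of *MT1E*, *MT1F*, *MT1X* and *MT2A*, over 9718 protein-coding genes with a mean of at least 5 CPM. A flat profile would differ by 1.36. The nearest were *SLC30A1* (0.39), the cytochrome P450 gene *CYP1B1* (0.39) and *SERPINB2* (0.42), which encodes an inhibitor of plasminogen activators. *SERPINB2* measured 64.1, 59.8 and 58.6 CPM in ABS libraries, against 10.4, 10.6 and 31.6 CPM in control libraries, so control replicate 3 was again the highest control. They were followed by *SLC16A6*, a member of the monocarboxylate transporter family (0.59), and by *OSGIN1*, *CTGF*, *FOSB* and *PTGS2* at 0.71 to 0.78.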

How the data were processed

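The values deposited by the authors are unnormalized whole-number counts for each gene in 6 libraries. Per the submitters' processing notes the authors used HISAT2 2.0.5, featureCounts 1.5.0-p3 and GRCh38; the annotation release, strand setting and treatment of multiply matching reads were not given in the sources used here. Gene lengths were used as the authors deposited them, and sequences came from GENCODE release 29 and RefSeq. Groups follow the sample titles. The 9 genes, the gene lists and the tests were chosen with earlier results of these data known.

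Genes were kept by filterByExpr (minimum count 10, minimum total 15), scaled by TMM and tested with edgeR 4.0.16 (quasi-likelihood F-test, group only) in R 4.3.3, with Benjamini-Hochberg adjustment over 13768 genes and a threshold of 0.05. The SE is the log2 fold change divided by the square root of F. The procedure was tested on simulated counts. P-values measure the spread between these libraries. Alternatives used RLE scaling (relative log expression) in edgeR, library size alone, no filter, or DESeq2 1.42.0 with its Wald test. Others used terms for replicate number or for the replicate 3 libraries, replicates 1 and 2 only, and each library left out. DESeq2 gave no adjusted p for *MT1M* or *MT1A*. Named genes were all 9, every other metallothionein with a count, list members past the threshold or else the 2 with the smallest p, the nearest tested neighbours, and the 8 most alike. Other list members were chosen after their values were seen.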

Additional observations from a re-analysis of the deposited data

How the results depend on the processing

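The count of genes passing, 60 with edgeR, became 264 with DESeq2, 409 when low counts were kept, 35 when scaled only by library size, 350 with the replicate block, 465 with a term for the replicate 3 libraries, 1813 within replicates 1 and 2 and 12 to 438 with a library left out. The same alternatives gave the 9 genes described here 4 to 7 calls. The log2 fold change of each tested member kept its sign in all 13 alternatives, at 3.002 to 3.73 for *MT1E*, 1.47 to 2.11 for *MT2A*, 2.44 to 3.26 for *MT1X*, 2.49 to 2.81 for *MT1F*, 0.44 to 1.67 for *MT1A* and 0.42 to 0.59 for *MTF1*. With few control counts, the fitted values moved most for *MT1M*, at 4.66 to 7.07 (5.11 with all libraries, 7.01 without control replicate 3), and *MT1G*, at 6.44 to 7.84, the ends being those without control replicate 3 and without control replicate 1. The summed metallothionein ratio of 3.97 was 9.03 without *MT2A* and 3.38 to 5.24 with a library left out. The *MT2A* share was 67.7% in ABS and 85.7% in control cells per deposited length, and 65.6% in ABS and 84.3% in control cells per mRNA length, which was chosen after seeing the data. With a library left out it was 70.5% to 71.5% in ABS and 86.7% to 87.9% in control cells. Calls among metal-responsive genes numbered 7 without a filter, 6 with DESeq2, 6 with the replicate block, 7 with the replicate 3 term, 9 within replicates 1 and 2 and 1 to 6 with a library left out. Factors at metallothionein promoters had 3, 3, 3, 3, 7 and 0 to 5 calls under the same settings in that order, glucocorticoid-induced genes 2, 2, 2, 2, 2 and 0 to 2, and neighbours of the cluster 1 within replicates 1 and 2. The cause of these shifts was not tested. The count over all genes moved as well, as given above, so nothing is read from the list counts. Replicate numbers were not treated as pairs in the main fit, since the submitters stated no pairing. Deviations from the group means correlated at 0.04, 0.03 and 0.17 for numbers 1, 2 and 3, and ABS replicate 2 correlated best with control replicate 1. ABS replicate 3 did correlate best with control replicate 3, against −0.12 and −0.06 with control replicates 1 and 2. The main fit held no term for the replicate 3 libraries. Depth limits *MT1H*, *MT1M* and *MT1A*, whose libraries held at most 32 counts.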
